A study of Drosophila melanogaster with 22 samples.

Results

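Circulating blood cells of uninfested Drosophila melanogaster larvae were compared at 2 ages, 96 h and 120 h, counted from egg laying. The comparison uses 6 of the 22 samples of the study: 2 nanopore cDNA libraries at each time (replicates 2 and 3) and 1 Illumina library at each time, all chosen by their labels. All were from wild-type larvae of the OreR strain, with no transgene and no treatment. Per the labels' protocols hemocytes came from pools of 100 to 150 larvae per condition that were vortexed with glass beads, after which 10 larvae per replicate were dissected in culture medium and RNA was taken in TRIzol. The other nanopore samples were lymph glands, the larval blood-forming organs, and blood of larvae infested by a parasitoid wasp (24 h after infestation at 96 h of age and 48 h at 120 h). The 6 infested blood libraries, 3 at each time, are set beside normal blood over the same interval of age. In them age and time since infestation move together and cannot be told apart.

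Drosophila blood holds 3 main classes of hemocytes. Plasmatocytes engulf microbes and dead cells and secrete extracellular matrix, crystal cells carry the prophenoloxidases that make melanin, and lamellocytes are large flat cells that are rare without wasp infestation. Between these ages the larva passes through the last part of its final instar towards pupariation, when pulses of the steroid hormone ecdysone act through the receptor EcR and early response genes such as br, and when the fat body makes storage proteins in bulk.

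The 96 h libraries held 568080 (replicate 2) and 828426 (replicate 3) gene counts and the 120 h libraries 2079764 and 723489. The Illumina libraries held 16327614 and 24307061 expected counts. With 3 reads as the limit that a count of 0 allows, a gene without reads could have had a level of up to 5.28 and 3.62 CPM (counts scaled to library size) at 96 h and up to 1.44 and 4.15 CPM at 120 h, which covers counting error only. Nothing in the labels says that replicates came from separate pools of larvae, so p-values measure only the spread between these libraries, which may be technical. Replicates 2 and 3 of the same condition differed by a chi-square of 2.39 to 2.88 per degree of freedom in the 4 blood conditions, against 5.32 to 16.8 for all other replicate pairs of the 16 libraries of the same kit. Replicates 2 and 3 were therefore also summed into 1 sample per blood condition, and what this leaves of the calls in normal blood is given in most passages. The tables list genes with at least 1 read, and a missing gene need not have lacked RNA: of 4732 genes with at least 10 reads expected from the other replicate, 87 had none in 1 of the 96 h libraries, as had 66 of 6346 at 120 h.

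The identity of the samples was checked first on markers of the 3 hemocyte classes. All 22 plasmatocyte markers had reads in each of the 4 libraries. Their summed level was 74984 and 70315 CPM at 96 h and 30329 and 30601 CPM at 120 h. Nplp2 was the largest contributor, with 58877 and 53043 CPM at 96 h and 14861 and 13389 CPM at 120 h. Most of the fall in the sum was in Nplp2. The 12 crystal cell markers summed to 15344 and 15187 CPM at 96 h and 7684 and 7865 CPM at 120 h. The 14 lamellocyte markers summed to 490 and 430 CPM at 96 h, where 5 and 3 of them were listed at 0, and to 572 and 571 CPM at 120 h. In these bulk samples fewer cells of a class and less RNA per cell cannot be told apart. Markers of other larval tissues were present as well and moved with the stage. The 23 muscle genes summed to 4597 and 4037 CPM at 96 h and to 844 and 829 CPM at 120 h. The 15 fat body genes summed to 898 and 1853 CPM at 96 h, with 10 and 8 of them at 0, and to 4331 and 4916 CPM at 120 h, with 4 and 4 at 0. Their part in the results was not tested.

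Of 7076 genes tested, 299 (4.23%) passed an adjusted p of 0.05 in edgeR's quasi-likelihood test. Of these 156 were higher at 120 h (2.2% of genes tested) and 143 lower (2.02%). Each of the 299 had groups that did not overlap, as did 51.9% of all genes tested. The median log2 fold change was 1.85 among the rises and -2.0 among the falls, and 0.09 over all genes tested. Together the genes that fell made up 115323 CPM at 96 h and 32218 CPM at 120 h, of which Nplp2 was the largest single gene. The genes that rose went from 14149 to 44962 CPM. Of the 299 genes 237 had reads in each of the 4 libraries, 121 of them higher and 116 lower. With replicates 2 and 3 summed, edgeR called 26 genes (0.325% of those tested), 12 higher and 14 lower, and each was among the 299. That test leaves 1 normal sample at each time, assumed to vary like the infested blood and lymph gland groups. With 1 of the 4 libraries left out, between 116 and 143 genes were called.

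**Figure D1:**
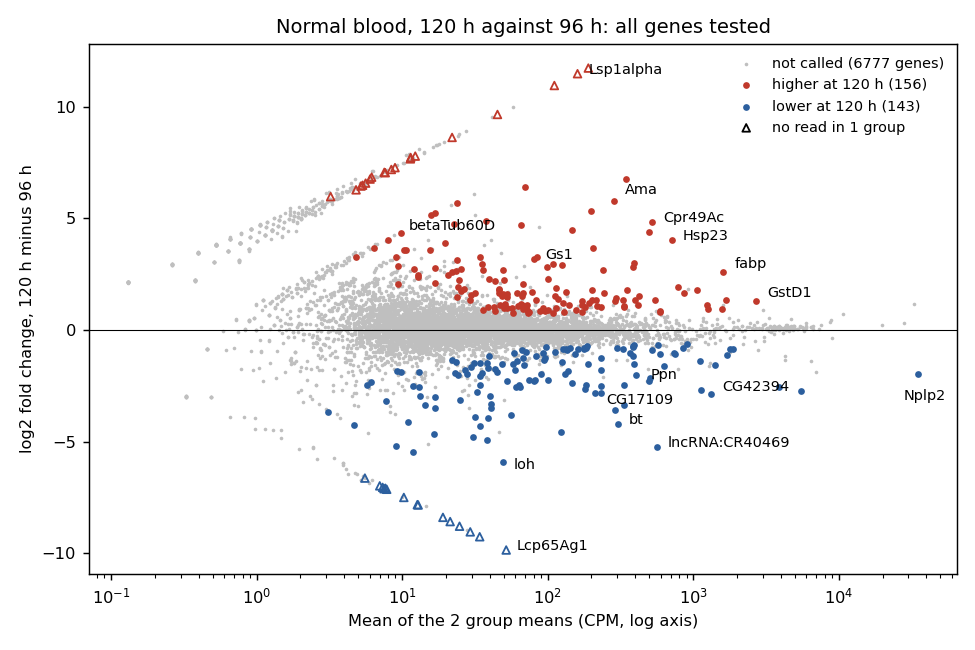
The log2 fold change from 96 h to 120 h (y axis) of each gene tested against the mean of both group means in CPM (x axis, log scale). Red and blue mark the 156 genes called higher and the 143 called lower, grey the rest, and open triangles called genes without a read in 1 group, whose height depends on the prior count of the fit; Nplp2 lies at the right end and Ama, Cpr49Ac and Hsp23 rise at high levels.

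Single genes that rose at high levels included secreted and metabolic proteins. Ama, a secreted immunoglobulin-domain protein known as an adhesion ligand in the fly nervous system, had 11.7 and 9.17 CPM at 96 h and 589 and 541 CPM at 120 h. Both late libraries were far above both early ones, a difference of 5.77 ± 0.37 in log2 (estimate ± SE, as for all such pairs that follow; edgeR adjusted p = 7.35e-07). Cpr49Ac, a member of the chitin-binding cuticle protein family, went from 37.1 and 34.1 CPM to 1003 and 1013 CPM (4.83 ± 0.42; edgeR adjusted p = 1.37e-05), again with replicates close together and groups far apart. Gs1, the mitochondrial glutamine synthetase, had 19.5 and 13.1 CPM at 96 h and 136 and 156 CPM at 120 h (3.19 ± 0.29; edgeR adjusted p = 1.68e-05). The fatty acid-binding protein gene fabp had 474 and 443 CPM at 96 h and 2923 and 2620 CPM at 120 h (2.60 ± 0.24; edgeR adjusted p = 1.68e-05). These 4 genes kept their calls without any 1 of the 4 libraries and with replicates summed. Among genes named after their values were seen, cib, an actin-binding protein of the thymosin family, rose from 476 ± 28.1 to 1652 ± 49.4 CPM (SD, n = 2 each) and the C-type lectin gene lectin-28C from 158 ± 0.613 to 547 ± 15.5 CPM. Both were called with replicates summed too.

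Genes for 3 small heat shock proteins, chaperones whose genes are also known targets of ecdysone in fly larvae, rose. Hsp23 had 97.6 and 70.7 CPM at 96 h and 1453 and 1229 CPM at 120 h, so that the groups lay far apart (4.01 ± 0.38; edgeR adjusted p = 1.73e-05). Hsp27 had 82.0 and 91.7 CPM at 96 h and 714 and 682 CPM at 120 h (3.0 ± 0.39; edgeR adjusted p = 0.000271). Hsp26 was listed at 0 in both early libraries and had 207 and 237 CPM in the late ones (edgeR adjusted p = 0.0144), whereas the Illumina library of 96 h held 57.8 CPM, so no fold change is given. These 3 genes lie next to each other on chromosome arm 3L in the BDGP6.54 annotation. The next tested genes beside Hsp26, CG4456 and Hsp22, which overlap each other in the annotation, did not pass (1.78 and 1.12; edgeR adjusted p = 0.0839 and 0.354), nor did CG4080 on the other side (0.64; 0.354). The 3 were the only calls among 17 heat shock genes tested (3 higher, 0 lower), where 2.2% of all genes tested were higher. The median log2 fold change of the 17 was 1.05, or 0.74 with the genes at 0 in a group set to their bound. The Hsp70 copies, which are near-identical and may share reads, did not pass, nor did the constitutive chaperone gene Hsc70-4 (0.03) or Hsp83 (-0.30). The genes here that did not pass were named after their values were seen, apart from CG4456. Hsp23 and Hsp27 kept their calls without any 1 library. Hsp26 lost its call without 96 h replicate 2 or 3 or 120 h replicate 2 (edgeR adjusted p = 0.0901, 0.123 and 0.0506). With replicates summed 1 of the 3, Hsp23, was called.

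Of 13 ecdysone response genes tested, 3 rose and none fell (all genes tested: 2.2% higher, 2.02% lower), and the list's median log2 fold change of 0.19 was close to that of all genes. br, a zinc-finger transcription factor of the early response, had 31.2 and 27.5 CPM at 96 h and 96.0 and 90.1 CPM at 120 h (1.67 ± 0.37; edgeR adjusted p = 0.0192). EcR, the hormone's receptor, went from 11.7 and 11.8 CPM to 45.1 and 33.1 CPM (1.76 ± 0.45; edgeR adjusted p = 0.0411). MsrA, a methionine sulfoxide reductase gene first known as an ecdysone-induced protein, was listed at 0 in both early libraries and had 44.6 and 43.6 CPM in the late ones (edgeR adjusted p = 0.0141). In each of the 3 the early and late libraries did not overlap. EcR did not pass in DESeq2's Wald test (adjusted p = 0.0843) or in limma voom (adjusted p = 0.0788), where br and MsrA did. Eip74EF, an early response factor of the Ets family, had 0 and 3.93 CPM at 96 h and 28.3 and 31.6 CPM at 120 h but did not pass (edgeR adjusted p = 0.105), and usp, the partner of EcR, named after its values were seen, differed by -0.30. The calls of br and EcR were lost without any 1 of the 4 libraries (edgeR adjusted p from 0.0671 to 0.158 and from 0.0798 to 0.267), and that of MsrA without either 96 h library or 120 h replicate 2 (0.0849, 0.129 and 0.064). None of the 3 was called with replicates summed.

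**Figure D2:**
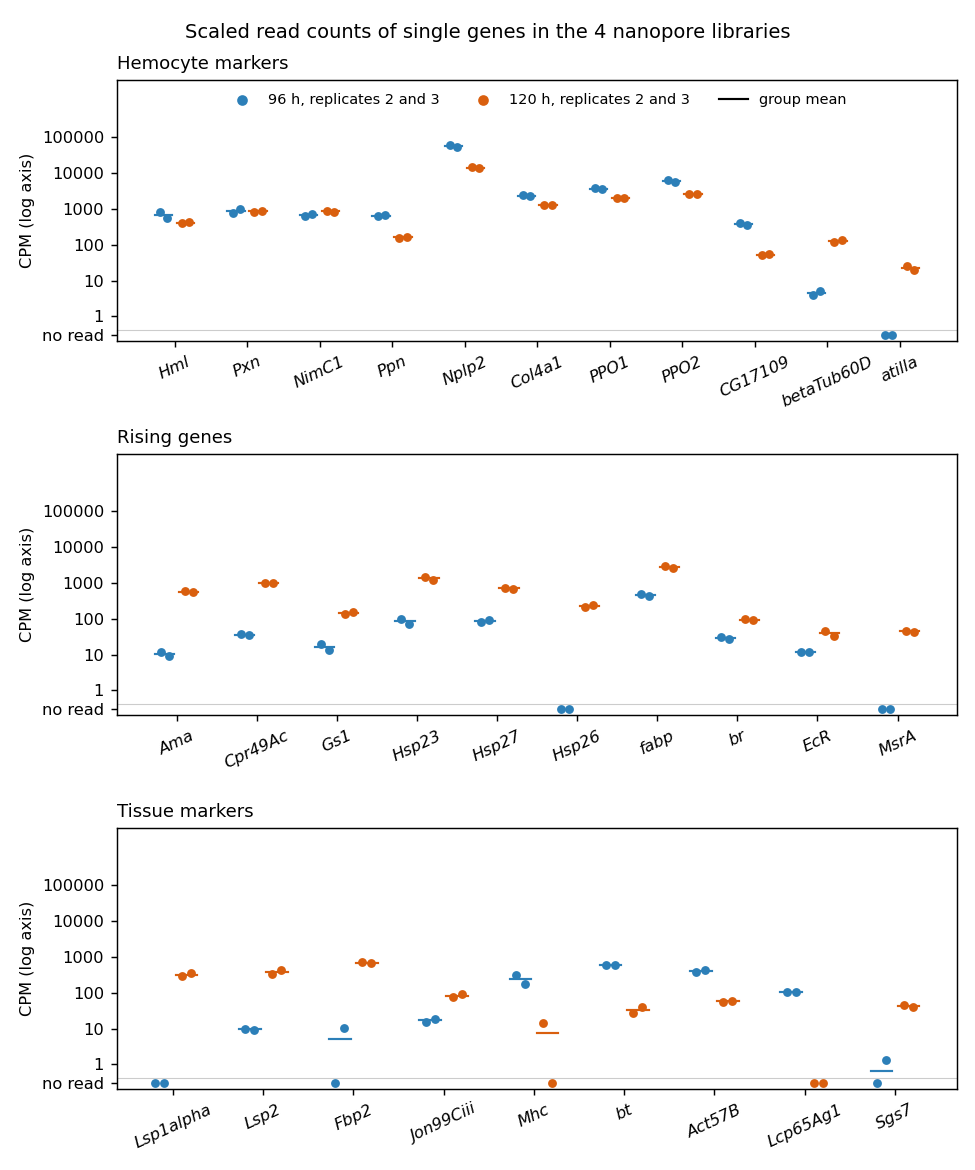
CPM on a log axis in each of the 4 nanopore libraries, blue for 96 h and orange for 120 h, with a bar at the mean of each pair; points on the lowest line had no read. Replicates lie close together for most genes, and among hemocyte markers Ppn, Nplp2 and CG17109 are lower and betaTub60D higher at 120 h while the groups of Pxn overlap.

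Plasmatocyte markers moved in both directions. Of the 22 markers 4 fell and 1 rose, against 2.02% and 2.2% of all genes, the other 17 did not pass, and the median log2 fold change was -0.20 against 0.09 for all genes. The largest fall was in Ppn, which codes for the matrix proteoglycan papilin, with 642 and 658 CPM at 96 h and 155 and 164 CPM at 120 h. Both late libraries were at about the same low level (-2.03 ± 0.25; edgeR adjusted p = 0.000228). Nplp2, a secreted peptide precursor and the gene with the most reads at 96 h, took 5.31 and 4.89% of all gene counts at 96 h and 1.36 and 1.23% at 120 h (-1.99 ± 0.40; edgeR adjusted p = 0.00885). The matrix genes Col4a1, a type IV collagen chain, and LanA, a laminin chain, fell less, from 2329 ± 134 to 1278 ± 41.8 CPM and from 181 ± 17.1 to 102 ± 6.27 CPM (SD, n = 2 each; edgeR adjusted p = 0.0443 and 0.0425). The second collagen chain, vkg, named after its values were seen, had 619 and 696 CPM at 96 h and 369 and 398 CPM at 120 h and did not pass (-0.78 ± 0.25; edgeR adjusted p = 0.0985).

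Among phagocytosis genes the share called was close to that of all genes. crq, a CD36-family receptor for apoptotic cells, had 52.7 and 74.7 CPM at 96 h and 167 and 173 CPM at 120 h, both late values above both early ones (1.40 ± 0.36; edgeR adjusted p = 0.0411). It was the only call among 23 phagocytosis genes tested, where 4.23% of all genes tested were called. The Nimrod receptor genes NimC1 and eater had 675 ± 49.5 and 562 ± 68.8 CPM at 96 h and 848 ± 17.5 and 727 ± 52.8 CPM at 120 h (SD, n = 2 each) and did not pass (edgeR adjusted p = 0.516 and 0.576). The general plasmatocyte markers did not pass either. Hml, a clotting protein gene, had 796 and 568 CPM at 96 h and 402 and 419 CPM at 120 h (-0.73 ± 0.24; edgeR adjusted p = 0.104). Pxn, a matrix peroxidase gene, had 751 and 1019 CPM at 96 h and 840 and 877 CPM at 120 h, so its groups overlapped (-0.05 ± 0.28). The GATA factor gene srp, needed for blood cell fate, had 33.2 and 22.3 CPM at 96 h and 26.2 and 39.1 CPM at 120 h and overlapped as well. Of the 5 called markers Ppn kept its call without any 1 library. Nplp2 lost it without 96 h replicate 2 or either 120 h library (edgeR adjusted p = 0.0618, 0.0895 and 0.115), and crq, LanA and Col4a1 lost it without any 1 of the 4 (0.123 to 0.272). None of the 5 was called with replicates summed.

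Crystal cell genes were lower at 120 h as far as they changed. Of 12 markers 3 fell and none rose, against 2.02% of all genes lower, and the median was -1.12. CG17109 had 392.2 and 350 CPM at 96 h and 50.4 and 55.6 CPM at 120 h, with no overlap (-2.81 ± 0.26; edgeR adjusted p = 1.73e-05), and was the marker still called with replicates summed. Men, the cytosolic malic enzyme, went from 680 ± 14.9 to 368 ± 21.2 CPM and the peroxiredoxin gene Prx2 from 1025 ± 71.1 to 485 ± 11.2 CPM (SD, n = 2 each; edgeR adjusted p = 0.00445 and 0.0226). The enzymes that define these cells did not pass. PPO1 had 3727 and 3546 CPM at 96 h and 1947 and 1952 CPM at 120 h (-0.90 ± 0.48; edgeR adjusted p = 0.355), and PPO2 6187 and 5677 CPM and then 2655 and 2623 CPM (-1.17 ± 0.46; 0.183). Within the normal libraries their groups were well apart. The test takes its spread from all 16 libraries. Why PPO1 and PPO2 did not pass was not tested. lz, the Runx factor of the lineage, had 11.7 and 27.5 CPM at 96 h and 5.25 and 6.01 CPM at 120 h (edgeR adjusted p = 0.245). Notch, the receptor known to specify crystal cells, fell from 371 and 289 CPM to 145 and 126 CPM (symbol N; -1.27 ± 0.30; edgeR adjusted p = 0.0272) and was the 1 call among 10 Notch pathway genes tested. Of Men, Prx2 and N none was called with replicates summed. CG17109 kept its call without any 1 library. Men lost it without 96 h replicate 3 or 120 h replicate 2 (edgeR adjusted p = 0.0513 and 0.0866), and Prx2 and N lost it without any 1 of the 4 (0.0692 to 0.193).

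Lamellocyte markers moved in both directions, 3 up and 2 down of 13 tested, against 2.2% and 2.02% of all genes. betaTub60D, a beta-tubulin isotype gene, had 3.90 and 5.24 CPM at 96 h and 120 and 132 CPM at 120 h, far apart (4.71 ± 0.57; edgeR adjusted p = 0.000172). atilla, which codes for the Ly6-family surface protein used to stain lamellocytes, was listed at 0 at 96 h and had 26.2 and 19.5 CPM at 120 h (edgeR adjusted p = 0.0237). In infested blood the same 2 genes had 1414 ± 218 and 1352 ± 86.0 CPM at 96 h and 5863 ± 67.1 and 3863 ± 1419 CPM at 120 h (SD, n = 3 each). CG15347, named after its values were seen, rose from 27.3 and 22.3 CPM to 87.6 and 61.6 CPM (1.63 ± 0.42; edgeR adjusted p = 0.0411). PPO3, the lamellocyte prophenoloxidase, stayed low, with 0 and 3.93 CPM at 96 h and 6.30 and 7.51 CPM at 120 h (edgeR adjusted p = 0.466). The integrin chain gene ItgaPS5 fell from 62.4 and 70.7 CPM to 20.5 and 19.5 CPM (-1.73 ± 0.28; edgeR adjusted p = 0.00197), and cpo, which codes for an RNA-binding protein, from 78.0 and 70.7 CPM to 5.25 and 9.01 CPM (-3.51 ± 0.60; edgeR adjusted p = 0.00311). betaTub60D and ItgaPS5 kept their calls without any 1 library. cpo lost its call without 120 h replicate 2 (edgeR adjusted p = 0.11), and atilla without either 96 h library or 120 h replicate 2 (0.118, 0.177 and 0.133). With replicates summed cpo was the 1 marker called. Of 8 markers of prohemocytes and the niche 1, Ance, rose, from 109 and 126 CPM to 278 and 258 CPM (1.19 ± 0.28; edgeR adjusted p = 0.0242; 0.0923 to 0.191 with 1 library left out and 0.439 with replicates summed).

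**Figure D3:**
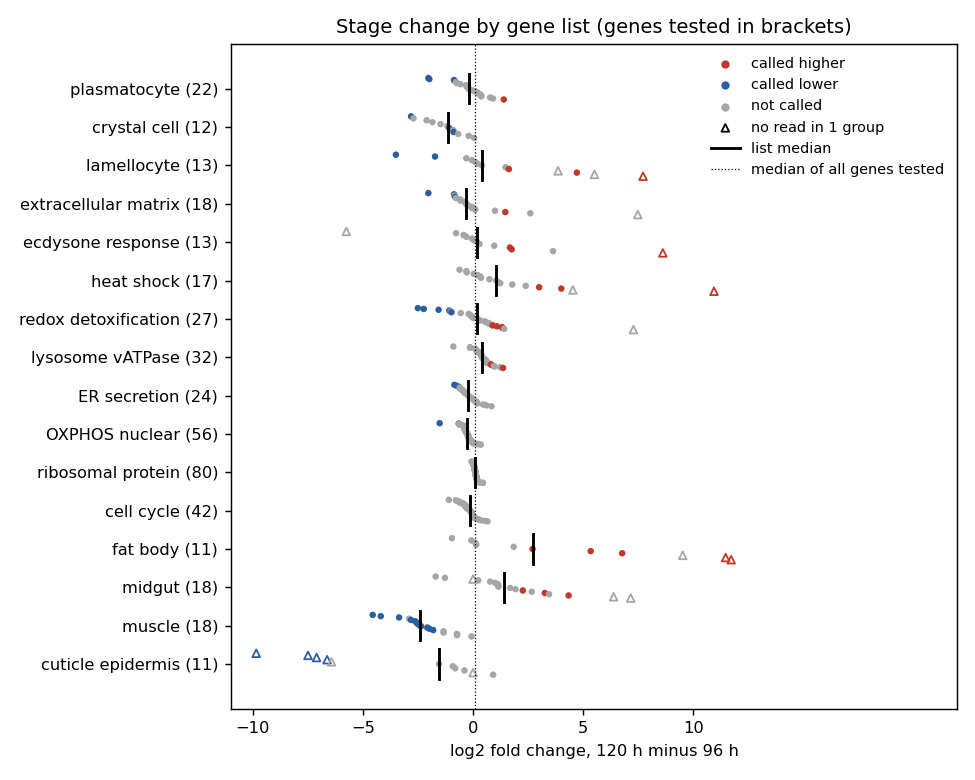
Each point is 1 gene of a list, by log2 fold change from 96 h to 120 h; red and blue mark genes called higher or lower, open triangles genes without a read in 1 group, thick bars the list medians and the dotted line the median of all genes tested (0.09). Muscle genes lie at -2.40 in the median and fat body genes at 2.70, while the 80 ribosomal protein genes lie within a narrow band around 0.10.

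Of 27 detoxification and redox genes tested 4 rose and 5 fell, against 2.2% and 2.02% of all genes, and 18 did not pass. GstD1, the most abundant glutathione S-transferase gene here, had 1577 and 1538 CPM at 96 h and 4028 and 3747 CPM at 120 h (1.32 ± 0.17; edgeR adjusted p = 0.000309). GstO3, of the omega class, rose from 293 and 324 CPM to 815 and 738 CPM (1.33 ± 0.21; edgeR adjusted p = 0.00177). GstD3 fell from 119 and 128 CPM to 29.4 and 21 CPM (-2.24 ± 0.28; edgeR adjusted p = 0.000228), although it belongs to the same delta class as GstD1. GstD4 and GstD7, its neighbours on arm 3R, named after their values were seen, fell too, and copies of this family are similar enough that reads may have been divided between them. Trx2, a thioredoxin gene, went from 1967 and 2233 CPM to 740 and 678 CPM (-1.57 ± 0.20; edgeR adjusted p = 0.00027). The metallothionein gene MtnA fell from 620 and 519 CPM to 120 and 85.6 CPM (-2.45 ± 0.29; edgeR adjusted p = 0.000134). GstD1, GstO3, GstD3, Trx2 and MtnA all kept their calls without any 1 library, and none of them was called with replicates summed (edgeR adjusted p from 0.0600 to 0.185).

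Few genes of organelle lists passed, and none of those named here was called with replicates summed (edgeR adjusted p from 0.238 to 0.568). Over all genes tested 2.2% were higher and 2.02% lower. Of 32 lysosome and V-ATPase genes 3 rose and none fell: the thiol reductase gene GILT1, from 16.3 ± 1.00 to 42.3 ± 0.308 CPM, and the cathepsin genes CtsB, from 423 ± 12.2 to 770 ± 47.5 CPM, and cathD, from 431 ± 22 to 753 ± 42.2 CPM (SD, n = 2 each; edgeR adjusted p = 0.0113, 0.0234 and 0.0273). Of 24 secretory pathway genes 3 fell and none rose: the COPII coat GTPase gene Sar1 (-0.66), the cargo receptor gene p24-1 (-0.85) and SsRbeta (-0.75), a subunit of the translocon-associated complex, with edgeR adjusted p of 0.0291, 0.0318 and 0.0469. Of 56 nuclear genes of oxidative phosphorylation 2 fell, the cytochrome c gene Cyt-c-p (-1.52 ± 0.33; edgeR adjusted p = 0.0174) and UQCR-6.4 (-0.65 ± 0.15; 0.0268). The citrate synthase gene kdn fell from 377 and 347 CPM to 81.9 and 131 CPM (-1.80 ± 0.38; edgeR adjusted p = 0.0138). With 1 library left out, CtsB, cathD, Sar1, p24-1, SsRbeta, Cyt-c-p and UQCR-6.4 lost their calls in all 4 cases, and GILT1 and kdn in 3 (edgeR adjusted p up to 0.347). No gene was called among 80 ribosomal protein genes (median 0.10), 42 cell cycle genes (-0.13), 31 proteasome genes (0.01), 15 mitochondrially encoded genes (-0.28) or 14 genes each of the Imd pathway (0.26) and autophagy (0.24).

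Few immune genes passed, and of the 5 named here none was called with replicates summed (edgeR adjusted p from 0.177 to 0.511). The antifungal peptide gene Drs rose from 13.7 and 6.55 CPM to 71.4 and 51.1 CPM (2.69 ± 0.53; edgeR adjusted p = 0.0077) and was the 1 call among 11 antimicrobial peptide genes tested (2.2% of all genes were higher). It lost its call without 96 h replicate 3 or 120 h replicate 2 (edgeR adjusted p = 0.143 and 0.0895). yellow-f, a dopachrome-converting enzyme gene of melanin synthesis, rose from 99.5 and 130 CPM to 283 and 300 CPM (1.34 ± 0.25; edgeR adjusted p = 0.00582; 0.0941 without 96 h replicate 2). The Toll ligand gene spz fell from 377 and 388 CPM to 228 and 203 CPM (-0.82 ± 0.21; edgeR adjusted p = 0.0378; 0.144 to 0.243 with 1 library left out), the 1 call among 13 Toll pathway genes (2.02% of all genes were lower). NimB5, a secreted Nimrod protein gene, fell from 521 and 553 CPM to 257 and 215 CPM (-1.18 ± 0.21; edgeR adjusted p = 0.00351; 0.0705 without 120 h replicate 3). Matrix metalloproteinase gene Mmp1 rose from 13.7 and 11.8 CPM to 36.2 and 33.1 CPM (1.47 ± 0.27; edgeR adjusted p = 0.00563), a call lost without 96 h replicate 3 or 120 h replicate 2 (0.131 and 0.111).

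Genes of other tissues held many of the largest changes. Of 18 muscle genes tested 12 fell and none rose, with a median of -2.40, against 2.02% of all genes called lower. bt, which codes for the giant sarcomere protein projectin, had 576 and 583 CPM at 96 h and 26.8 and 39.1 CPM at 120 h (-4.19 ± 0.59; edgeR adjusted p = 0.00061). Act57B, a muscle actin gene, had 377 and 432 CPM at 96 h and 56.1 and 58.6 CPM at 120 h (-2.82 ± 0.37; edgeR adjusted p = 0.000357). Both late libraries were low for each of these genes, as they were for Mf and Tm2, which also kept their calls without any 1 library. None of the 12 was called with replicates summed. In the Illumina pair the muscle list summed to 968 CPM at 96 h and 596 CPM at 120 h, a smaller difference than between the nanopore sums. In infested blood bt and Act57B fell as well (-2.28 ± 0.47 and -1.42 ± 0.29; edgeR adjusted p = 0.00257 and 0.00244).

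The called genes of the Lcp65A cuticle cluster had no read in either late library of normal blood. Of 11 epidermal and cuticle genes tested 4 fell, against 2.02% of all genes, all from the Lcp65A cluster on arm 3L, where 5 of the 6 genes tested were called lower. Lcp65Ag1 had 105 and 102 CPM at 96 h and was listed at 0 at 120 h in both libraries (edgeR adjusted p = 0.00214). Set against 3 counts over the group it was at least 88.7-fold lower, a bound that covers counting error only. Lcp65Ae had 60.5 and 76.0 CPM and Lcp65Ac 25.4 and 15.7 CPM at 96 h, and both were listed at 0 at 120 h. Lcp65Ag1, Lcp65Ag2 and Lcp65Ag3 are near-identical copies, so their counts are uncertain one by one. The Illumina library of 96 h held no more than 1.89 CPM of any of these 5 genes. Over the whole cuticle and epidermis list of 32 genes the nanopore libraries summed to 503 and 781 CPM at 96 h and 285 and 358 CPM at 120 h, and the Illumina libraries to 36.0 and 258 CPM, the opposite order. Cuticle protein family genes outside this list moved both ways, with Cpr49Ac higher at 120 h (log2 fold change 4.83) and Cpr67Fa2 lower (-5.47). None of the 5 Lcp65A genes was called with replicates summed (edgeR adjusted p from 0.0997 to 0.262). In all 15 genes called lower had no read at 120 h. Among the others of these CG15597, CG43078, Cpr67Fa1 and CG15515 lost their calls without at least 1 library (edgeR adjusted p up to 0.225) and with replicates summed (0.106 to 0.257). CG11350 (54.6 and 62.9 CPM at 96 h) and frm (50.7 and 48.5 CPM) kept their calls without any 1 library and with replicates summed (edgeR adjusted p = 0.0335 and 0.0399). frm had 0.735 and 5.14 CPM in the Illumina libraries of 96 h and 120 h, the opposite order. loh, which codes for a secreted ADAMTS-like matrix protein, fell from 105 and 90.4 CPM to 2.1 and 0 CPM (-5.91 ± 0.56; edgeR adjusted p = 1.73e-05), with the Illumina libraries at 93.8 and 3.37 CPM. Lcp65Ag1 and Lcp65Ac lost their calls without 120 h replicate 2 (edgeR adjusted p = 0.0619 and 0.119) Lcp65Ag3 without 2 of the 4 libraries (up to 0.157), and Lcp65Ae and Lcp65Ag2 without any 1 library (0.0628 to 0.216).

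Of 11 fat body genes tested 5 rose and none fell, where 2.2% of all genes were higher. Lsp2, a larval serum storage protein gene, had 9.76 and 9.17 CPM at 96 h and 342 and 434 CPM at 120 h (5.34 ± 0.71; edgeR adjusted p = 0.000362). Lsp1gamma rose from 56.6 and 69.4 CPM to 382 and 448 CPM (2.70 ± 0.52; edgeR adjusted p = 0.00683). Fbp2, a fat body protein gene, had 0 and 10.5 CPM at 96 h and 696 and 667 CPM at 120 h (6.77 ± 1.72; edgeR adjusted p = 0.0384). Its log2 fold change was 6.01 without 96 h replicate 2 and 12.6 without 96 h replicate 3, which leaves no read at 96 h. Lsp1alpha and the odorant-binding protein gene Obp99b were listed at 0 in both early libraries and had 287 and 355 CPM and 383 and 379 CPM in the late ones (edgeR adjusted p = 0.00612 and 0.0226). Such zeros are doubtful in this family, since Lsp1beta, named after its values were seen, was listed at 0 in 96 h replicate 2 and had 798 CPM in replicate 3, and at 120 h it had 1315 and 1594 CPM (edgeR adjusted p = 0.448). In the Illumina pair Lsp1alpha had 29.4 and 154 CPM, Lsp2 31.8 and 284 CPM, Obp99b 5.88 and 212 CPM and Fbp2 16.5 and 310 CPM, each higher at 120 h. In limma voom Obp99b and Fbp2 did not pass (adjusted p = 0.165 and 0.196), whereas the other 3 did. Lsp2 kept its call without any 1 library. Lsp1alpha and Lsp1gamma lost theirs without either 96 h library (edgeR adjusted p from 0.0521 to 0.0856), and Obp99b and Fbp2 without any 1 of the 4 (0.0612 to 0.231). None of the 5 was called with replicates summed. In infested blood the change of 3 of the 5 differed from that in normal blood, though not with replicates summed. Lsp1gamma had 373 ± 78.2 CPM at 96 h and 221 ± 174 CPM at 120 h, and Lsp2 64.0 ± 18.9 and 150 ± 73.3 CPM (SD, n = 3 each; edgeR adjusted p of the difference = 0.0119 and 0.0235). Lsp1alpha had 98.5 ± 17.1 and 153 ± 196 CPM (edgeR adjusted p of the difference = 0.0411). Its difference rests on the doubtful zeros of normal blood at 96 h. The 5 genes were picked by their rise in normal blood, which the difference subtracts, so the directions of these differences are partly built in. Obp99b had 312 ± 173 and 364 ± 237 CPM and Fbp2 31.4 ± 44.6 and 182 ± 196 CPM, and their differences did not pass (edgeR adjusted p = 0.0672 and 0.376). In lymph glands, where 1 library of another kit was taken at 120 h, Lsp2 had 47.5 CPM at 96 h (mean of 3 libraries) and 14 CPM at 120 h. The 96 h value is TMM-scaled and the 120 h value is scaled to the library total alone, so they are not on the same scale.

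The 30 midgut genes summed to 398 and 356 CPM at 96 h and 956 and 930 CPM at 120 h. In the Illumina pair they summed to 104 and 13.4 CPM, the opposite order. Of 18 midgut genes tested 3 rose (2.2% of all genes were higher). The serine protease gene Jon99Ciii went from 15.6 and 18.3 CPM to 76.1 and 90.1 CPM (2.26 ± 0.31; edgeR adjusted p = 0.00177). In the Illumina libraries it had 24.6 CPM at 96 h and 2.41 CPM at 120 h, again the opposite order. Jon66Ci and Jon66Cii had edgeR adjusted p of 0.0329 and 0.0471 and lost their calls without any 1 of the 4 libraries. None of the 3 was called with replicates summed. The 16 salivary gland genes summed to 5.85 and 18.3 CPM at 96 h and 158 and 150 CPM at 120 h, without a call among the 7 tested. Glue protein gene Sgs7 had 0 and 1.31 CPM at 96 h and 46.2 and 39.1 CPM at 120 h (edgeR adjusted p = 0.28). The 20 male germline genes summed to 58.5 and 55.0 CPM at 96 h and 181 and 155 CPM at 120 h, with no call among 11, and in the Illumina pair to 56.1 and 1431 CPM. The homeotic gene Ubx was listed at 0 in both 96 h libraries and had 87.6 and 93.1 CPM at 120 h (edgeR adjusted p = 0.0465), but 0.306 and 0.206 CPM in the Illumina pair and no read in infested blood. Ubx did not pass in DESeq2's Wald test (adjusted p = 0.575) and was not called with replicates summed. Its call was lost without any 1 of the 4 libraries (edgeR adjusted p from 0.141 to 0.215).

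Of 122 annotated non-coding RNA genes tested 4 rose and 3 fell, as did 2 and 5 of 102 genes known only from the authors' assembly, counts that lie near the 2.2% higher and 2.02% lower of all genes tested. lncRNA:CR40469 had 960 and 1243 CPM at 96 h and 29.9 and 27.0 CPM at 120 h, a fall in both late libraries (-5.25 ± 0.43; edgeR adjusted p = 7.94e-06). lncRNA:CR42868 fell from 97.6 and 109 CPM to 17.3 and 18 CPM (-2.55 ± 0.29; edgeR adjusted p = 0.000132). It lies on arm 2R in a stretch of 11 tested genes, of which 4 others were called lower (CG34446, CG42565, CG42566 and CG4250), CG42867 was called higher and 5 did not pass; these neighbours were named after their values were seen, and where genes overlap reads may have been divided. BIGFLY-novelRNA-105 fell from 66.3 and 51.1 CPM to 1.57 and 3.0 CPM (-4.80 ± 0.62; edgeR adjusted p = 0.000293), and BIGFLY-novelRNA-93 rose from 5.85 and 6.55 CPM to 40.9 and 34.6 CPM (2.59 ± 0.40; 0.00144). The first 3 of these kept their calls with replicates summed. In the Illumina pair lncRNA:CR40469 had 1.3 and 0 CPM, lncRNA:CR42868 2.29 and 1.03 CPM and BIGFLY-novelRNA-105 3.81 and 0.691 CPM, all far below the nanopore levels of 96 h. The ribosomal RNA pseudogene 28SrRNA-Psi:CR41609, whose near-identical copies share reads, fell from 2482 and 1428 CPM to 286 and 314 CPM, against 41.0 and 200 CPM in the Illumina pair, the opposite order.

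The Illumina pair, 1 library at each time, gives a direction without a test. Of the called genes 158 reached 100 CPM in 1 of the Illumina libraries or both, and of these 147 (93.0%, exact 95% binomial interval 87.9 to 96.5%) had the same sign of log2((CPM + 5) ratio) as the nanopore change. Among all 2009 genes tested that reach this level 71.8% had the same sign. The binomial interval takes the genes as independent and covers no spread between libraries. Of the genes that rose 93 of 98 had the same sign and of those that fell 54 of 60. The sizes differed. The Illumina libraries held 21183 and 916 CPM of Hml and 26563 and 197 CPM of Ppn at 96 h and 120 h, where the nanopore means were 682 and 411 CPM and 650 and 159 CPM. Col4a1 went from 16331 to 2540 CPM and PPO1 from 25418 to 2635 CPM in the Illumina pair. NimC1 had 1083 and 1535 CPM and eater 1194 and 1291 CPM. betaTub60D rose from 32.2 to 3548 CPM, and Ama from 11.6 to 2118 CPM. Among the 11 genes with the opposite sign were 28SrRNA-Psi:CR41609, mthl6 and Inos, of which the last 2 were named after their values were seen.

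**Figure D4:**
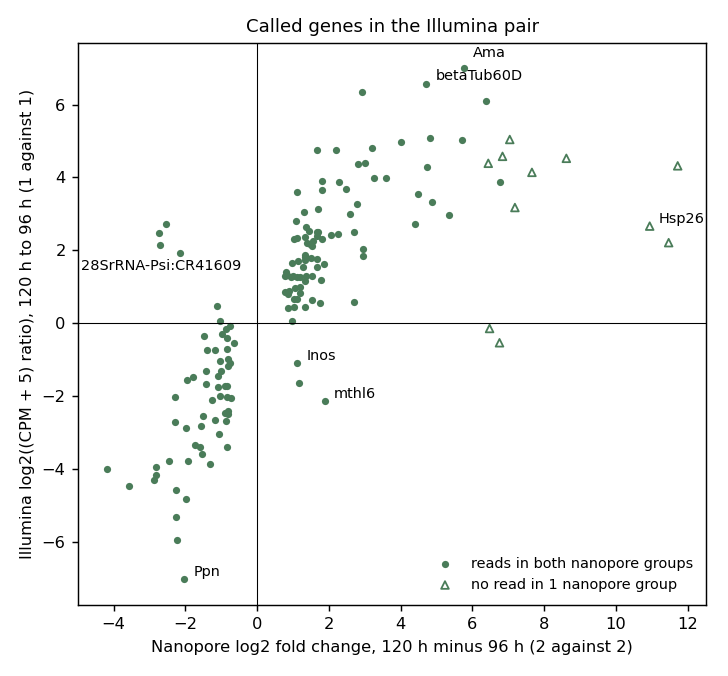
The nanopore log2 fold change of the 158 called genes that reach 100 CPM in an Illumina library (x axis) against the Illumina log2((CPM + 5) ratio) of the single libraries (y axis); open triangles had no read in 1 nanopore group. Of the points 147 lie in the quadrants of equal sign.

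In infested blood, which shares no library with normal blood, the same interval gave 1070 rises (15.1% of genes tested) and 660 falls (9.33%). Of the 156 genes that rose in normal blood 67 also rose there (42.9% of the rises in normal blood and 6.26% of those in infested blood), 3 fell and 128 had a positive fold change. Of the 143 that fell 95 also fell (66.4% and 14.4%), 3 rose and 128 had a negative fold change. The share of equal signs over all genes tested was not counted, so the counts by sign have no background here. The test of the difference itself called 141 genes (1.99%). Of the genes that rose in normal blood 34 were among them, each with a smaller or opposite change in infested blood, and of the genes that fell 15, of which 14 fell less or rose. These genes were picked by their change in normal blood, which the difference subtracts, so these directions are partly built in. Gs1 had 21.4 ± 2.99 and 24.3 ± 1.40 CPM in infested blood at 96 h and 120 h (SD, n = 3 each), against its rise in normal blood (difference of log2 fold changes -3.03 ± 0.38; edgeR adjusted p = 0.00124). MtnA had 376 ± 43.2 and 420 ± 92.1 CPM, against a fall in normal blood (2.61 ± 0.36; edgeR adjusted p = 0.00203). The globin gene glob1 fell from 85.9 and 83.8 CPM to 27.8 and 33.1 CPM in normal blood and rose from 111 ± 13 to 185 ± 41.7 CPM in infested blood (2.24 ± 0.28; edgeR adjusted p = 0.00124). CG42394 fell from 2435 and 2241 CPM to 294 and 344 CPM in normal blood and had 4584 ± 647 and 3449 ± 241 CPM in infested blood (2.46 ± 0.28; edgeR adjusted p = 0.000688). With replicates summed edgeR's test of the difference called 0 of 7988 genes, with 619 at an unadjusted p under 0.05. DESeq2 was run only on all 16 libraries with replicates kept apart, where it called 176 genes. On the same libraries edgeR's test of the difference called 141 genes, 123 of them among the 176. With 1 blood library left out it called from 23 genes (without normal 120 h replicate 2) to 246 (without infested 120 h replicate 1).

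**Figure D5:**
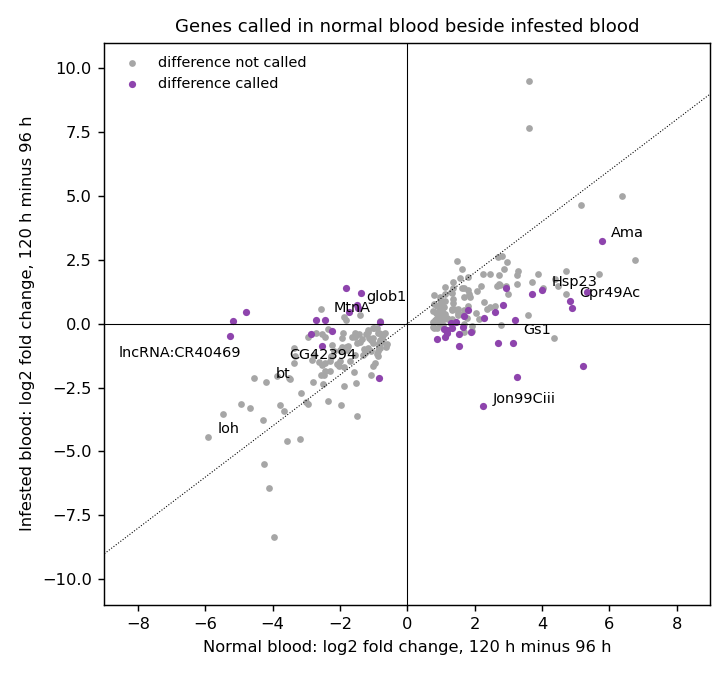
The log2 fold change from 96 h to 120 h in normal blood (x axis) and in infested blood (y axis) for the 265 called genes with reads in both normal groups; purple marks genes whose change differed between them by the test of the difference, and the dotted line is equality. Gs1, MtnA, CG42394 and lncRNA:CR40469 lie near 0 on the y axis, and Jon99Ciii has opposite signs.

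Isoform usage was tested in 1609 genes with at least 2 transcripts, of which 20 (1.24%) were called by edgeR's gene-level F test and 0 by its Simes test. In alc, which codes for the beta subunit of AMP-activated kinase, the shorter transcript FBtr0088625 made up 83.8 and 83.2% of the gene's reads at 96 h and 53.0 and 39.1% at 120 h, from 254 and 149 reads (edgeR adjusted p = 0.00674). The Illumina libraries gave 76.6 and 26.4% for it, the same direction. In Rtnl1, a reticulon gene that shapes the endoplasmic reticulum, FBtr0079038 went from 19.97 and 22.8% to 52.5 and 51.5% (edgeR adjusted p = 0.00133), and in the Illumina pair from 36.9 to 63.2%. CG13551 shifted towards FBtr0072033, from 56.0 and 58.1% to 80.2 and 75.3% (edgeR adjusted p = 0.00329), whereas the Illumina libraries gave 92.7 and 96.3%. With 1 library left out 6 to 10 of the 20 genes were called again. pnr, CG4293, Ank and Lis-1 were called on 9.33 to 26.5 reads at 96 h.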

How the data were processed

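Per the file headers, the authors deposited a count of reads for every gene and an estimated count for every transcript of each nanopore library; for the Illumina libraries the deposited values are expected counts, TPM and the isoform percent. The submitters' processing notes name minimap2 2.17-r941, RSEM 1.3.1, STAR 2.5.3a, FastQC 0.11.8 and StringTie 2.1.3 without saying which step used them. Build, nanopore counting tool and strand use were not stated, so overlapping, antisense or near-identical genes may have shared reads.

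Raw gene counts went into edgeR 4.0.16 (R 4.3.3): TMM-scaled, quasi-likelihood F test, p-values adjusted by Benjamini-Hochberg over every gene tested, threshold 0.05. The fit held 16 libraries (kit SQK-PCB109) in 6 groups and left 10 residual degrees of freedom. filterByExpr with a minimum count of 10 and a minimum total of 15 kept 7076 of 13721 genes. CPM are TMM-scaled. Isoform usage was tested with diffSpliceDGE on rounded transcript counts. Illumina expected counts were scaled to CPM, and TPM entered no comparison. Left out of the gene counts were ambiguous reads (1.26 and 1.16% at 96 h, 0.53 and 0.58% at 120 h) and reads outside genes (0.685 to 0.788%). At the transcript level, which the isoform test used, ambiguous reads were 28.0 and 28.0% at 96 h and 24.6 and 25.4% at 120 h. They were left out too, and their effect on isoform usage was not tested. On simulated counts for the stage in normal blood (6462 genes tested), 25 of 100 genes changed 2-fold and 88 of 100 changed 4-fold were called, with 2 false calls. The simulated libraries were drawn independently of each other, and only genes with a mean of at least 20 CPM were changed. The simulation therefore does not cover replicates that are technical repeats, or the recovery of genes at lower levels.

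The samples and the 49 gene lists were chosen with earlier results of these data known. Named genes were the 12 largest rises and 12 largest falls past the threshold whose groups did not overlap and whose higher group had 20 CPM or more (at most 4 each way known only by a number), 4 genes per list by smallest p, 14 hemocyte markers, 6 non-coding genes, 8 isoform genes and 8 genes of the difference test; any other is named as chosen after its values were seen. Of 1007 list symbols 973 matched the BDGP6.54 annotation directly, 23 through an older name and 11 not at all. Alternatives were other scalings and filters, DESeq2 1.42.0, limma 3.58.1 voom, a replicate block and libraries left out. Added after seeing the data were replicates 2 and 3 summed and the fit without the infested blood libraries numbered 1. The fit of the 10 blood libraries alone and the count of genes with a read in all 4 libraries were also added then. The planned search for promoter motifs was not run.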

Additional observations from a re-analysis of the deposited data

Results flagged for a closer look

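In infested blood age and time since infestation move together in the stage change and cannot be told apart. The stage change differed between infested and normal blood, by edgeR's test of the difference itself, in 141 genes. The 8 with the smallest p and at least 20 CPM in a blood group are given as log2 differences of the stage change, infested minus normal. MtnA (2.61), lncRNA:CR40469 (4.78), CG42394 (2.46) and glob1 (2.24) fell in normal blood, and in infested blood glob1 rose and the other 3 did not pass. Gs1 (-3.03) and Cpr49Ac (-3.92) rose more in normal blood. Jon99Ciii (-5.49) rose in normal blood and fell in infested blood. Jon25Bi (-9.45) did not pass in normal blood and fell in infested blood from 510 ± 66.8 to 1.62 ± 2.25 CPM (SD, n = 3 each). None of the 8 differences was called with replicates 2 and 3 of each blood group summed.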

How the results depend on the processing

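In normal blood the number of genes called, 299, was 711 with the 4 normal libraries alone, 660 without the filter on low counts, 460 without the infested libraries numbered 1, 26 with replicates 2 and 3 summed and 116 to 143 with 1 library left out. Other scalings, filters and tools gave 247 to 330 calls, and 237 had reads in all 4 libraries. With DESeq2 77 of the 84 named genes called kept their calls, and with limma voom 79. The correlation of deviations between the same replicate numbers at 96 h and 120 h was -0.03 in normal blood. With 2 libraries per time the value for the other numbers is its mirror image, so this cannot decide whether the numbers pair the samples. Over all pairs of blood groups it ran from -0.0299 to 0.168 for the same numbers and from -0.0640 to 0.0938 for the other. With a replicate block 453 genes were called. For infested blood 1730 genes were called, 2706 without the filter and 799 with libraries summed. The difference test called 141 genes, 488 without the filter, 220 with the replicate block, 0 with libraries summed and 23 to 246 with 1 library left out. Isoform usage was called in 20 genes, 0 by Simes p, 1 without the filter and 12 to 43 with 1 library left out, among which were 6, 6, 10 and 8 of the 20. Of 84 named genes called 32 kept their calls without any 1 normal library, 13 in every setting run on them, and 14 with libraries summed, and no named gene called reversed its direction in any of the settings run. Of called genes in the Illumina pair 90.0 to 93.1% had the same sign under the other pseudocounts and minimum levels. With 2 libraries per time and 568080 counts in the shallowest, 25 of 100 simulated 2-fold changes were recovered. These were in genes with a mean of at least 20 CPM and in libraries simulated as independent.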
